A study of Mus musculus with 12 samples.

Results

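The nuclear genes for subunits and assembly factors of the 5 mitochondrial respiratory complexes were followed in mouse colon. Members were taken by symbol: genes beginning with Nduf (complex I), Sdha, Sdhb, Sdhc or Sdhd (complex II), Uqcr (complex III), Cox4, Cox5, Cox6, Cox7 or Cox8 (complex IV) and Atp5 (complex V), without pseudogenes. The deposited table held 94 such genes among 22377 genes, and a further 4 genes with matching symbols had no listed transcript. RNA from colon was sequenced in 12 libraries, which fall by their treatment label into 4 control, 4 DSS and 4 FGF1 libraries. The titles of the DSS libraries carry a number in place of the group name, and the labels do not explain it. DSS is read here as dextran sulfate sodium, a polymer that injures the colon lining, and FGF1 as fibroblast growth factor 1, which the series' design text mentions as a recombinant protein supplied to mice with bowel disease. The labels give no genotype, strain, age, dose or duration, and they do not state whether the FGF1 mice also received DSS. They do not say that each library came from its own animal, so p-values measure only the spread between these libraries, which may be technical.

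The respiratory complexes sit in the inner mitochondrial membrane. Complexes I and II pass electrons from NADH and succinate to coenzyme Q, complex III passes them to cytochrome c, complex IV delivers them to oxygen, and complex V uses the resulting proton gradient to make ATP. Most subunits are encoded in the nucleus, and absorptive cells of the colon rely on this machinery to oxidise short-chain fatty acids.

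Values are FPKM (fragments per kilobase of transcript, scaled to the fragments mapped in a library), summed over the listed transcripts of a gene. Fold changes are differences of mean log2(FPKM + 1), given with the SE of the limma model, and they understate the change of genes with low FPKM. A gene was called at a Benjamini-Hochberg adjusted p under 0.05 over the 12578 genes that reached 1 FPKM in 4 or more libraries, and 93 of the 94 members passed that filter. The exception was Cox6a2, the muscle form of subunit 6a. The libraries listed between 45795 and 54313 transcripts, with DSS 3 and DSS 4 lowest at 45795 and 47597. Epithelial markers were present throughout: their score, the mean log2(FPKM + 1) of 10 genes such as Epcam, lay between 8.51 and 8.89. The score of 7 fibroblast markers such as Col1a1 was 4.71 to 5.18 in control, 1.37 to 3.29 in DSS and 3.12 to 4.56 in FGF1 libraries, lowest in DSS 3 and DSS 4. These 2 libraries stand apart, so the leading results are given with and without them. In bulk tissue, fewer cells of a type and less RNA per cell cannot be told apart.

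Respiratory genes were among the abundant messages of the colon. Together the members carried 4.33% to 4.64% of the listed FPKM in control libraries. Their share was 4.19%, 4.93%, 5.45% and 5.45% in DSS 1 to DSS 4 and 4.51% to 4.94% in FGF1 libraries. DSS 1 was thus below every control library, and DSS 3 and DSS 4 were above all others. The median control level was 80.5 FPKM over the 46 tested genes of complex I, 61.3 over the 7 of complex II, 186 over the 8 of complex III, 294 over the 15 of complex IV and 250.4 over the 17 of complex V. Among the named genes the highest control levels were those of Cox4i1, the common form of subunit 4 of complex IV, at 754 ± 193 FPKM (SD, n = 4), Cox6a1 at 707 ± 45.6 and Atp5b, the catalytic beta subunit of complex V, at 704 ± 26.1. A mean of at least 100 FPKM over the 12 libraries was reached by 56 of the 94 members, and 6 had a mean under 5.

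Against control, most respiratory genes were slightly higher in the DSS libraries, few of the differences passed the test, and the shift was carried mainly by DSS 3 and DSS 4. Fold changes were positive for 81 of 93 members, beside 40.3% of all genes tested, and the median was 0.19 on the log2 scale, beside -0.071 over all genes. The test called 8 of 93 members, beside 12.3% of all genes: 5 were higher (2.23% of all genes were called higher) and 3 lower (10.1% of all genes). Groups did not overlap for 7 members that were higher in DSS (3.67% of all genes) and 2 that were lower (13.3% of all genes). Among the lower ones, Cox4i2 passed the filter only through its control values. At an unadjusted p under 0.05 there were 18 higher members (7.21% of all genes) and 4 lower (20.5%). By complex, median fold changes were 0.17 (I), 0.12 (II), 0.26 (III), 0.22 (IV) and 0.24 (V). The 82 structural subunits had a median of 0.20, and the 11 assembly factors had 0.043 with no call and 1 member at an unadjusted p under 0.05 (limma).

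Without DSS 3 and DSS 4 the median of the members was 0.027, 56 of 93 fold changes were positive and 1 member was called. Over all genes the median was then -0.036, 45.1% were positive and 185 of 12501 were called. Without DSS 1 the median of the members was 0.31 and 23 members were called, 20 of them higher. Of all 12511 genes then tested, 1982 were called, 283 of them higher. The count of members called was 2 without control 4 (724 of 12413 genes were called) or without DSS 3 (697 of 12546). It was 3 without control 2 (1156 of 12456 genes), control 3 (773 of 12412) or DSS 4 (827 of 12542). Scaling the libraries by the median of ratios moved the median of all genes from -0.071 to 0.054, and 40.8% of the called genes were then higher, against 18.1% as deposited. The members lay 0.26 above the median of all genes as deposited and 0.28 above it after that scaling, which called 11 members higher and 3 lower. Of all 12532 genes tested after that scaling, 1659 were called, 677 of them higher.

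**Figure D1:**
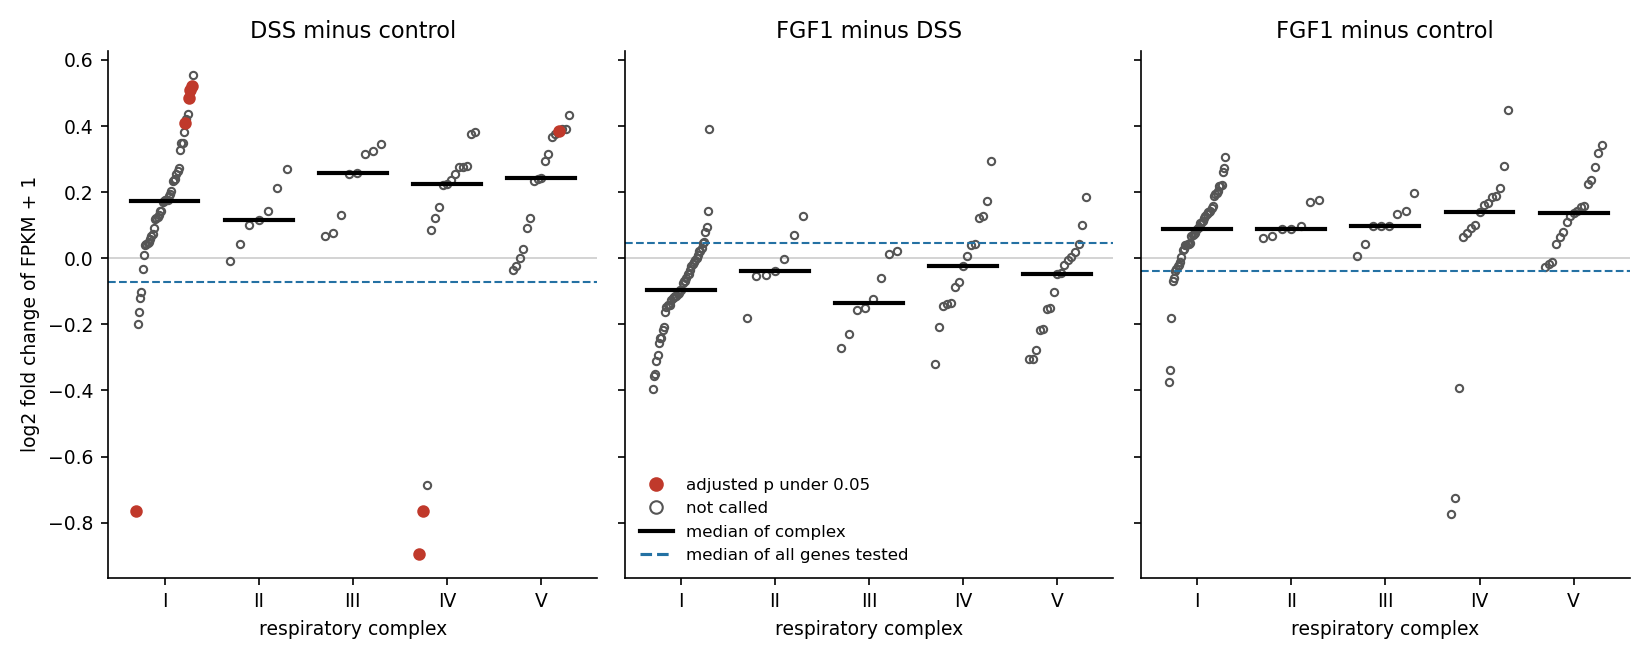
Log2 fold change of FPKM + 1 (vertical axis) of each tested member, ordered within its complex (horizontal axis), in the 3 comparisons. Filled circles passed the test, bars are medians of a complex and the dashed line is the median of all genes tested; in DSS minus control the medians of the complexes lie between 0.12 and 0.26, above the all-gene median of -0.07, and only in that comparison are members called (8 of 93).

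The 4 DSS libraries did not move together. Relative to the control mean, the median member lay at -0.071 in DSS 1, 0.15 in DSS 2, 0.36 in DSS 3 and 0.32 in DSS 4 on the log2 scale. The highest of the 12 values was found in DSS 3 for 34 members and in DSS 4 for 32, whereas DSS 1 held the highest value of 1 member and the lowest of 22. Complex IV spread most, with a median of -0.23 in DSS 1 and 0.50 in DSS 4, and complex II least, from -0.041 in DSS 1 to 0.25 in DSS 3. The FGF1 libraries had member medians of 0.16, 0.12, -0.019 and 0.14, and the control libraries ran from -0.036 to 0.076.

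**Figure D2:**
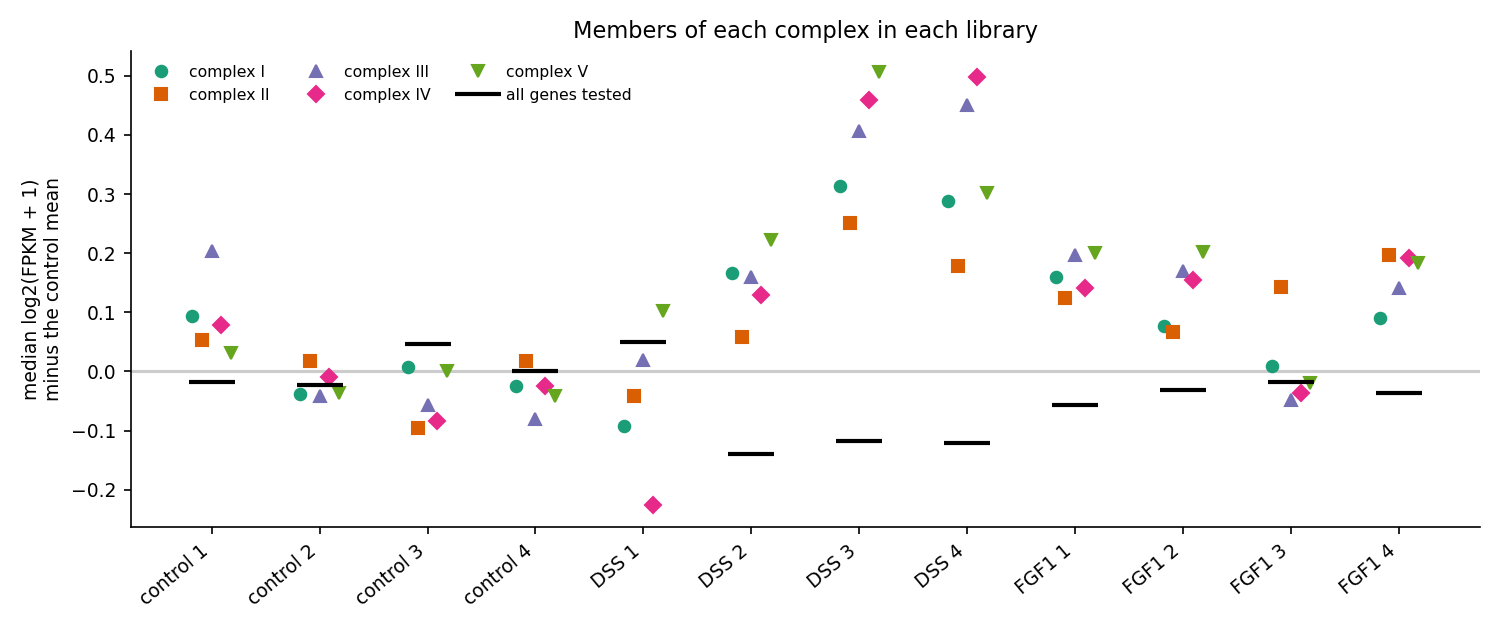
Median over the members of each complex of log2(FPKM + 1) minus the control mean (vertical axis) in each of the 12 libraries (horizontal axis); symbols are complexes I to V and black bars are all genes tested. All 5 complexes lie above all genes in DSS 2, DSS 3 and DSS 4, and in DSS 1 complex IV lies lowest at -0.23.

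In complex I, 4 accessory subunits rose in DSS. Ndufa6, an accessory subunit of the LYR protein family (ENSMUSG00000022450, chr15:82350140-82354322, minus strand, all positions on GRCm38), had 224, 180.5, 156 and 175 FPKM in control 1 to 4 and 212, 232, 313 and 305 in DSS 1 to 4. The groups overlapped, since control 1 exceeded DSS 1. The fold change was 0.52 ± 0.16 (limma, adjusted p = 0.0484), and the 4 FGF1 libraries had 204, 258, 205 and 240.1 FPKM. Its call was kept under 6 of 29 other settings.

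Ndufb8, a membrane-arm subunit (ENSMUSG00000025204, chr19:44548572-44555440, minus strand), had 134, 122, 128 and 123 FPKM in control and 160.0, 159, 207 and 188 in DSS libraries. Every DSS library was above every control library. The fold change was 0.48 ± 0.11 (limma, adjusted p = 0.0144), and FGF1 libraries had 148, 143, 122 and 143 FPKM. The call was kept under 24 of 29 other settings, but counting only transcripts of start events turned the fold change to -1.43. Ndufb8 overlaps the gene model Gm20538 on the same strand, so the split of reads between them is uncertain.

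Ndufc2, a small membrane-arm subunit (ENSMUSG00000030647, chr7:97400003-97407802, plus strand), had 93.8, 90.2, 101 and 100.3 FPKM in control and 116, 114, 143 and 141 in DSS libraries. The groups were separate, with a fold change of 0.41 ± 0.11 (limma, adjusted p = 0.0294). FGF1 libraries had 126, 117, 101 and 119 FPKM, and the processed pseudogene Gm16053 lies within its span, which makes the split of reads uncertain. Ndufs4, an accessory subunit of the electron-input arm whose loss causes a Leigh-like disease in mice (ENSMUSG00000021764, chr13:114287795-114388258, minus strand), had 43.6, 38.6, 33.9 and 36.2 FPKM in control and 45.2, 51.6, 65.3 and 57.6 in DSS libraries. Again all DSS libraries were above all control libraries. The fold change was 0.51 ± 0.12 (limma, adjusted p = 0.0181), and FGF1 libraries had 45.1, 46.5, 42.0 and 43.5 FPKM. Without DSS 3 and DSS 4 the fold changes were 0.28 (Ndufa6), 0.33 (Ndufb8), 0.26 (Ndufc2) and 0.34 (Ndufs4), and none was called.

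The core of complex I, whose proteins bind NADH and carry the flavin and iron-sulfur clusters, gave no call. Ndufv1, the NADH-binding flavoprotein, had 67.2 ± 1.79 FPKM in control, 73.3 ± 6.37 in DSS and 66.2 ± 1.18 in FGF1 libraries (SD, n = 4). Other core members had fold changes in DSS of 0.23 (Ndufs7), 0.20 (Ndufs3), 0.18 (Ndufv2), 0.058 (Ndufs1) and -0.10 (Ndufs8). The largest positive value of the complex belonged to the assembly factor Ndufaf4, named after its values were seen, at 0.56, which was not called (limma, adjusted p = 0.305). Its highest value stood in DSS 2 alone: Ndufaf4 had 3.97, 3.96, 4.03 and 2.58 FPKM in control and 5.51, 13.6, 3.92 and 3.42 in DSS libraries.

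Ndufa4 and Ndufa4l2 carry complex I names, although later work placed Ndufa4 in complex IV. Ndufa4 had 178 ± 26.6 FPKM in control, 183 ± 22.3 in DSS and 191 ± 39.9 in FGF1 libraries. Its scarce relative Ndufa4l2, a gene induced by low oxygen in other settings (ENSMUSG00000040280, chr10:127514967-127517154, plus strand), had 0.896, 1.65, 2.74 and 1.20 FPKM in control, 1.10, 0.424, 0.419 and 0.163 in DSS and 0.845, 0.773, 1.27 and 0.961 in FGF1 libraries. The groups overlapped, since DSS 1 exceeded control 1. The fold change was -0.77 ± 0.23 (limma, adjusted p = 0.0464), a call kept under 6 of 26 other settings. The 3′ end overlaps Shmt2 on the opposite strand, and without a statement that strand was kept, reads of these genes cannot be told apart there.

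**Figure D3:**
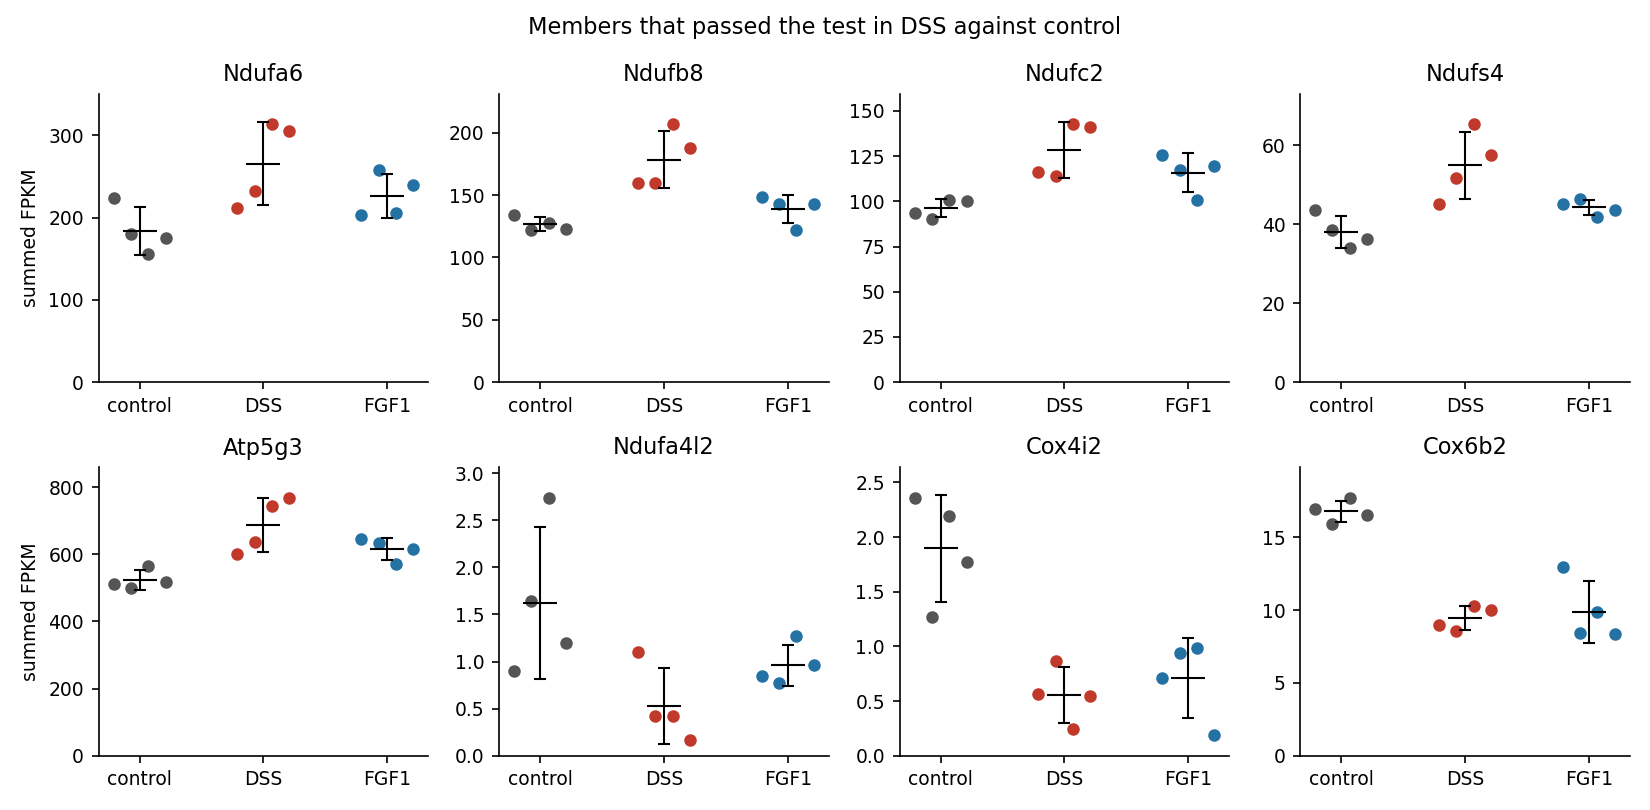
Summed FPKM (vertical axes, from 0) of the 8 members called in DSS against control; points are libraries 1 to 4 from left to right in each group, and lines are the mean with its SD. The 5 genes that rose have their highest values in DSS 3 or DSS 4, and Cox6b2 lies at 15.9 to 17.7 in control and 8.57 to 10.3 in DSS libraries.

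Complex II is also the succinate dehydrogenase of the tricarboxylic acid cycle, and none of its 7 tested members was called or had an unadjusted p under 0.05 (limma). Sdha, its flavoprotein, had 147 ± 12.5 FPKM in control, 159 ± 14.1 in DSS and 154 ± 12.2 in FGF1 libraries. Fold changes in DSS were 0.12 ± 0.10 for Sdha, 0.10 ± 0.12 for the iron-sulfur protein Sdhb, and 0.14 ± 0.081 and 0.21 ± 0.11 for the membrane anchors Sdhc and Sdhd. Sdhaf4, an assembly factor, had 19.5, 19.1, 15.2 and 22.3 FPKM in control and 16.1, 20.7, 28.4 and 29.1 in DSS libraries. Only DSS 3 and DSS 4 exceeded its control range, and its fold change was 0.27 ± 0.19.

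All 8 members of complex III had positive fold changes in DSS, from 0.07 to 0.35, and none was called, with 2 at an unadjusted p under 0.05 (limma). Uqcrh, the hinge protein that helps cytochrome c dock, had 485, 415, 416 and 363 FPKM in control, 428, 417, 634 and 701 in DSS and 504, 488, 464 and 459.6 in FGF1 libraries. DSS 1 and DSS 2 lay within the control range, and the fold change of 0.35 ± 0.17 was 0.017 without DSS 3 and DSS 4. The Rieske iron-sulfur protein Uqcrfs1 had 0.26 ± 0.12, and the core proteins Uqcrc1 and Uqcrc2 had 0.13 ± 0.11 and 0.076 ± 0.14.

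In complex IV the 2 called members were alternative isoforms of low abundance, and both were lower in DSS. Cox6b2, the form of subunit 6b known from testis (ENSMUSG00000051811, chr7:4751792-4753094, minus strand), had 16.9, 15.9, 17.7 and 16.5 FPKM in control, 9.002, 8.57, 10.3 and 10.03 in DSS and 12.9, 8.40, 9.84 and 8.37 in FGF1 libraries. By these sums both treated groups lay wholly below control. The fold change in DSS was -0.77 ± 0.13 (limma, adjusted p = 0.00468), and without DSS 3 and DSS 4 it was -0.86 and still called. Its call was kept under 26 of 29 other settings. Cox4i2, the form of subunit 4 known from lung and induced by low oxygen (ENSMUSG00000009876, chr2:152754173-152765037, plus strand), had 2.36, 1.26, 2.19 and 1.77 FPKM in control, 0.569, 0.870, 0.240 and 0.546 in DSS and 0.708, 0.943, 0.987 and 0.192 in FGF1 libraries. It too was lower in every treated library than in every control library. However, Cox4i2 reached 1 FPKM only in the 4 control libraries and passed the filter through them alone. Its entry to the test is thus tied to this separation, although it was also called with no filter on low values. The fold change in DSS was -0.89 ± 0.20 (limma, adjusted p = 0.0156), and -0.74 without DSS 3 and DSS 4, where it was not called.

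None of the common isoforms of complex IV was called. Cox4i1 had 807, 729, 507 and 972 FPKM in control and 684, 704, 1009 and 1152 in DSS libraries, with a fold change of 0.24 ± 0.21 and wide overlap. Cox6a1 had a fold change of 0.12 ± 0.13, and its muscle form Cox6a2 was listed at 0 in the control libraries and reached at most 0.134 FPKM elsewhere. In the 7a family, fold changes were 0.15 ± 0.31 for the heart and muscle form Cox7a1, 0.28 ± 0.17 for the common form Cox7a2 and 0.28 ± 0.38 for the supercomplex factor Cox7a2l. Cox7a2l varied widely in DSS, at 108, 77.0, 261 and 236 FPKM, where control libraries had 105, 162, 90.2 and 154. Cox8a, the common form of subunit 8, had 594 ± 39.7 FPKM in control and 726 ± 129 in DSS libraries. Cox8b, its muscle and brown fat form, had 2.35, 1.92, 2.01 and 1.46 FPKM in control libraries. In DSS libraries Cox8b had 1.495, 1.38, 0 and 0.832, a fold change of -0.68 ± 0.28 that did not pass (limma, adjusted p = 0.133). The brown fat score ran from 0.639 to 4.21 among control libraries, and its part in Cox8b was not tested. Cox5a and the zinc-binding Cox5b had fold changes of 0.26 ± 0.18 and 0.084 ± 0.21.

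In complex V the 3 genes of the c subunit, whose ring turns as protons pass, had fold changes near 0.4, and the 5 genes of the catalytic head ran from -0.037 to 0.23. Atp5g1, Atp5g2 and Atp5g3 encode the same mature protein behind different import signals. Atp5g3 (ENSMUSG00000018770, chr2:73908447-73911326, minus strand) had 510.3, 499, 566 and 518 FPKM in control, 599.6, 637, 743 and 768 in DSS and 646, 634, 570.4 and 617 in FGF1 libraries. Control lay below both treated groups. The fold change in DSS was 0.39 ± 0.11 (limma, adjusted p = 0.0439), a call kept under 9 of 29 other settings, and 0.24 without DSS 3 and DSS 4, where it was not called. Atp5g1 had 226, 197, 286 and 225 FPKM in control and 272, 317, 352 and 316 in DSS libraries, and its fold change of 0.43 ± 0.13 did not pass (limma, adjusted p = 0.0517). Atp5g2 had 188, 177, 204 and 189.7 FPKM in control and 234, 206, 311 and 254 in DSS libraries, without overlap, and a fold change of 0.39 ± 0.12 (limma, adjusted p = 0.0525). In the head, Atp5a1 had 0.12 ± 0.10, Atp5b -0.037 ± 0.12 and Atp5c1, the central shaft, 0.00021 ± 0.13, and Atp5d and Atp5e, its smaller parts, had 0.090 ± 0.16 and 0.23 ± 0.16. The stalk and membrane subunits were named after their values were seen. Their fold changes were 0.39 (Atp5l), 0.38 (Atp5mpl), 0.37 (Atp5j2), 0.32 (Atp5h), 0.29 (Atp5f1), 0.24 (Atp5o), 0.027 (Atp5j) and -0.022 (Atp5k). None of these was called, and a fold change near 0.4 was not particular to the ring. Differences between ring, head and the other subunits were not tested.

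Because a gene's value sums several transcripts, the classes of transcript behind Ndufb8 and Cox6b2 were set apart, as a description with no test. Coding transcripts of Ndufb8 had 101 ± 9.53 FPKM in control and 122 ± 29.1 in DSS libraries, and their ranges overlapped (88.5 to 112 and 88.6 to 153). Its transcript annotated for nonsense-mediated decay, a route that degrades messages with an early stop, ranged from 18.6 to 31.7 in control and from 39.7 to 49.4 in DSS libraries. Its retained-intron transcripts were scarcer and ranged from 1.81 to 3.38 in control and from 3.88 to 27.7 in DSS libraries, with the highest value in DSS 1. The decay and retained-intron classes thus did not overlap between control and DSS libraries, while the coding sums did. With the most abundant transcript in place of the sum, the fold change of Ndufb8 was 0.21 and not called. Coding transcripts of Cox6b2 had 10.2 ± 0.582 FPKM in control, 6.89 ± 1.71 in DSS and 8.89 ± 3.13 in FGF1 libraries. Its retained-intron transcript had 5.63 ± 0.948, 1.85 ± 2.01 and 0.744 ± 1.22, so that in FGF1 libraries the lower sum lay mainly in that transcript. The share of a gene's FPKM in its main transcript was tested in 75 members. None was called by limma in DSS against control (0.0521% of 5760 genes were), FGF1 against DSS (0.0174%) or FGF1 against control (0.0347%), with 3, 4 and 3 members at an unadjusted p under 0.05.

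**Figure D4:**
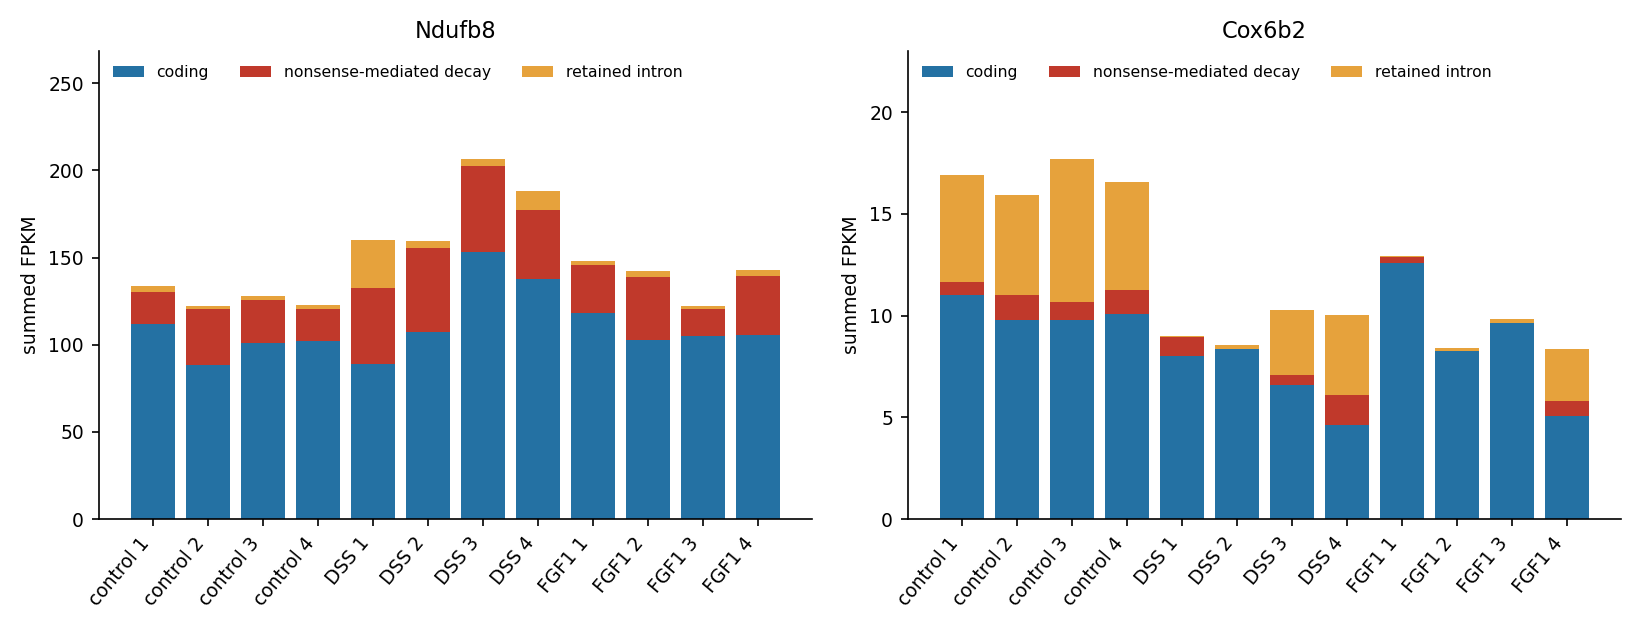
Summed FPKM (vertical axes, from 0) of coding, nonsense-mediated decay and retained-intron transcripts of Ndufb8 and Cox6b2, stacked, in each of the 12 libraries. The decay transcript of Ndufb8 averages 45.2 in DSS and 23.4 in control libraries, and the retained-intron transcript of Cox6b2 averages 1.85 and 5.63.

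The promoters of the members were read for sites of factors known to drive respiratory genes. The RefSeq promoter table (GRCm38.p6, from 250 bases before to 50 after the start) held 78 of the 94 members. Of 11 motifs searched on both strands, those described at length were chosen after looking. The site of nuclear respiratory factor 1 (NRF1), GCGC and TGCGC with any 1 base between them, was found in 21 members (26.9%), in 5.19% of all 27025 genes with a promoter and in 11.38% of the 9823 that were tested. AAGATGGC, a site of YY1, was found in 14.1% of members, 3.19% of all and 5.36% of tested genes. Most of its matches in members lay after the start. CCGGAAG, a site of GABPA (nuclear respiratory factor 2), was found in 25.6%, 9.93% and 19.99%, and AAGGTCA, a site of estrogen-related receptors, in 10.3%, 5.38% and 4.04%. The others, with their shares of members, all genes and tested genes, were CGGAAG, which lies within CCGGAAG (44.9%, 18.78% and 34.79%), AANATGGC, which covers AAGATGGC (25.6%, 6.96% and 10.06%), TCAAGGTCA, which covers AAGGTCA (2.6%, 0.47% and 0.31%), and TGACGTCA (5.1%, 2.03% and 3.61%). For GGGGCGGGG (16.7%, 12.91% and 24.6%) and ACGTG (24.4%, 21.78% and 29.58%) the members' share lay above that of all genes and below that of tested genes, and for TATAAA (9.0%, 15.67% and 9.04%) it was close to that of tested genes. Members with the NRF1 motif had a median fold change of 0.17 in DSS and those without it 0.19, and for YY1 the medians were 0.23 and 0.17. For CCGGAAG they were 0.15 and 0.21, and for AAGGTCA 0.19 and 0.19. A match is a description of the letters and not a measured site.

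Ndufc2, a called member that rose, matched none of the 11 motifs and has no window here. Windows of 30 bases are shown to let the motifs be seen in 4 other called members that rose and in Atp5g2, which was not called. The windows run 5′ to 3′ on the gene's own minus strand, with the motif in capitals. They hold the NRF1 motif at chr15:82354249-82354278 (Ndufa6), chr2:73911295-73911324 (Atp5g3) and chr15:102671070-102671099 (Atp5g2), and the YY1 motif at chr19:44555393-44555422 (Ndufb8) and chr13:114388045-114388074 (Ndufs4). Relative to the start, the first base of the motif stands at 24 (Ndufa6), 13 (Atp5g3), -42 (Atp5g2), 39 (Ndufb8) and 36 (Ndufs4). Only the motif of Atp5g2 thus lies before the start.
Ndufa6: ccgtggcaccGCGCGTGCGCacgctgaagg
Atp5g3: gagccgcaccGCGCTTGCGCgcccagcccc
Atp5g2: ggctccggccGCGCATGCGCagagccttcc
Ndufb8: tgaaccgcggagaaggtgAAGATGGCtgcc
Ndufs4: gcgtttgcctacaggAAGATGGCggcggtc

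The 150 bases before the start are shown for one member that rose and one that fell, at chr2:73911327-73911476 (Atp5g3) and chr7:4753095-4753244 (Cox6b2), both on the minus strand. The capitals in Atp5g3 mark TCAAGGTCA read on the other strand. The Cox6b2 promoter had no match to the NRF1, GABPA, YY1 or AAGGTCA motifs, and neither had that of Ndufc2, which rose. Cox6b2 did match GGGGCGGGG, though not within the 150 bases shown. Ndufa4l2 and Cox4i2, the other called members that fell, had no promoter to read.
Atp5g3: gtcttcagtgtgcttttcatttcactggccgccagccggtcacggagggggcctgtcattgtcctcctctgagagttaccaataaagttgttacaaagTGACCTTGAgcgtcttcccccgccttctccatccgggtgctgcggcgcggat
Cox6b2: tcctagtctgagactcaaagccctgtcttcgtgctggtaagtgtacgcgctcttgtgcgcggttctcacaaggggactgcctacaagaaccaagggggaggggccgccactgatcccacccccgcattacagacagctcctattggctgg

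The FGF1 libraries were compared with DSS and with control, and these comparisons share libraries with the one above. Against DSS no member was called by limma (0.0557% of all genes were), and an unadjusted p under 0.05 was reached by 5 lower members (3.71% of all genes) and by none that was higher (8.7%). Groups did not overlap for 1 lower member (1.83% of all genes) and for none that was higher (4.45%). The median member had -0.069, beside 0.046 over all genes, and 27 of 93 fold changes were positive, beside 58.7% of all genes. By complex the medians were -0.10, -0.038, -0.14, -0.022 and -0.048 for I to V. Of the members called in DSS against control, Ndufb8 had -0.36 ± 0.11, Ndufs4 -0.29 ± 0.12, Ndufa6 -0.22, Ndufc2 -0.15 and Atp5g3 -0.15. The called members that were lower in DSS had 0.39 (Ndufa4l2), 0.12 (Cox4i2) and 0.040 ± 0.13 (Cox6b2). These genes were chosen for their values in the same DSS libraries, so their changes here are not independent of that choice. Single libraries moved the member median, to -0.18 without DSS 1, -0.013 without DSS 3, -0.039 without DSS 4 and -0.040 without FGF1 3, and it turned to 0.059 without both DSS 3 and DSS 4. No cell marker was called in the same comparison: the 7 fibroblast markers had a median of 1.53 (6 at an unadjusted p under 0.05, limma), the 8 of smooth muscle 1.17 (3) and the 10 of epithelium 0.15 (1).

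Against control no member was called in FGF1 libraries by limma (0.0795% of all genes were), and an unadjusted p under 0.05 was reached by 3 higher members (4.02% of all genes) and 2 lower (9.91%). Groups did not overlap for 7 higher (3.66%) and 3 lower members (6.61%). Among the lower ones, Cox4i2 passed the filter only through its control values. Fold changes were positive for 77 of 93 members, beside 42.5% of all genes, with a median of 0.10, beside -0.039 over all genes. No cell marker was called here either: all 10 epithelial markers were positive (median 0.25, 2 at an unadjusted p under 0.05, limma), and all 7 of fibroblasts (-0.89, 4), 6 of endothelium (-0.82, 5) and 8 of smooth muscle (-0.66, 0) were negative. Their part in the members' values was not tested. By complex the member medians ran from 0.089 (I) to 0.14 (IV). Cox6b2 had -0.73 ± 0.13 (limma, adjusted p = 0.0660) and Cox4i2 -0.77 ± 0.20 (limma, adjusted p = 0.135). Cox6b2 was called with a pseudocount of 5, with no filter on low values and without FGF1 1. Of the genes that rose in DSS, Ndufa6 had 0.31, Ndufc2 0.26, Atp5g3 0.24, Ndufs4 0.22 and Ndufb8 0.13 in FGF1 libraries against control.

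Among other genes of mitochondrial metabolism, only 2 carriers were called in DSS against control, where 12.3% of all genes were called. At an unadjusted p under 0.05 (limma), 7.21% of all genes were higher and 20.5% lower. Of 8 carriers of the mitochondrial membranes, 2 rose, and at an unadjusted p under 0.05 there were 4 higher and 1 lower (limma). The lower one was Slc25a4, the ADP/ATP carrier of heart and muscle, with 49.3, 44.2, 92.9 and 68.4 FPKM in control and 38.7, 41.9, 25.8 and 20.3 in DSS libraries, which did not overlap, and a fold change of -0.98 ± 0.33 that did not pass (limma, adjusted p = 0.0682). Vdac2, a pore of the outer membrane, had 119 ± 2.88 FPKM in control, 155 ± 6.71 in DSS and 142 ± 10.5 in FGF1 libraries, a fold change of 0.38 ± 0.082 in DSS (limma, adjusted p = 0.0133). Slc25a20, which brings acylcarnitines into mitochondria, had 94.5 ± 23.7, 166 ± 12.2 and 113 ± 24.8, a fold change of 0.84 ± 0.21 (limma, adjusted p = 0.0229). No gene was called by limma among 18 of the tricarboxylic acid cycle (median 0.025, 0 at an unadjusted p under 0.05), 13 of coenzyme Q synthesis (0.017, 2), 16 of mitochondrial DNA expression (0.021, 0) and 20 of glycolysis (0.13, 4). None was called either among 9 further assembly factors of complex I (-0.015, 0), 6 of complex III (0.014, 1), 24 of complex IV (0.16, 1) and 4 assembly factors and inhibitors of complex V (0.027, 2). Cyc1, a subunit of complex III outside the symbol rule, and Cycs, the cytochrome c that carries electrons out of that complex, had fold changes of 0.27 and 0.21. Of 10 regulators of mitochondrial genes none was called (median -0.052, 1 at an unadjusted p under 0.05), with Esrra, an estrogen-related receptor, at 81.0 ± 5.72 FPKM in control and 101 ± 22.4 in DSS libraries, Ppargc1a, a coactivator of mitochondrial biogenesis, at 3.76 ± 0.686 and 5.16 ± 1.25, and Nrf1 at 6.83 ± 0.369 and 6.51 ± 0.737. In the comparisons of FGF1 libraries no gene of these lists was called.

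Markers of several other cell types were lower in DSS, where most members were slightly higher. All 7 fibroblast markers (median -2.74) and all 6 endothelial markers (-1.37) were called lower, as were 2 of 8 smooth muscle markers (-1.81), 2 of 4 tested leukocyte markers (-1.46) and 1 of 2 tested striated muscle markers. None of 10 epithelial markers was called (0.12, 3 at an unadjusted p under 0.05, limma), nor either of 2 tested brown fat markers. The fibroblast score was 3.29, 2.60, 1.79 and 1.37 in DSS 1 to DSS 4, and the smooth muscle score was 7.43, 7.29, 6.61 and 5.60, against 7.77 to 9.47 in control libraries. The libraries with the highest respiratory genes were those with the lowest fibroblast score, while DSS 1 had a score below every control library and 36 of 93 members above the control mean. With the smooth muscle score in the model no member was called and the median member had 0.058. With the fibroblast score in the model, a setting chosen after seeing the data, no gene was called and the median member had -0.25. Neither the smooth muscle score nor the fibroblast score overlapped between control and DSS libraries. Each of these scores and the DSS label thus cannot be told apart.

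**Figure D5:**
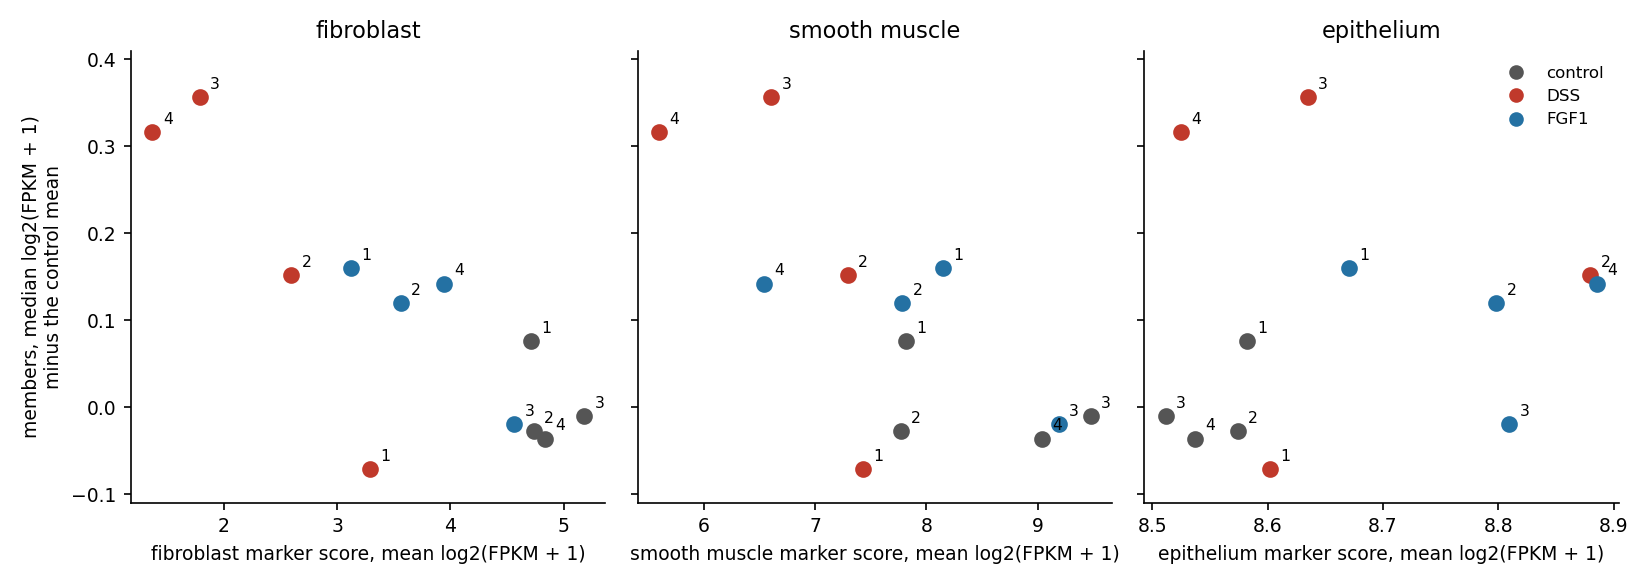
Median over the members of log2(FPKM + 1) minus the control mean (vertical axis) against the marker scores of fibroblasts, smooth muscle and epithelium (horizontal axes, mean log2(FPKM + 1)); points are the 12 libraries, colored by group and numbered by replicate. DSS 3 and DSS 4 combine the highest member levels, 0.36 and 0.32, with fibroblast scores of 1.79 and 1.37, and DSS 1 lies at -0.07 with a score of 3.29.

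Short, abundant genes outside the respiratory complexes showed a median shift of like size in DSS, and long, abundant ones a smaller shift. The median length of the main transcript was 834 bases for the members and 2716 over all genes tested. Among other genes with a main transcript under 1000 bases and a mean of at least 50 FPKM, limits chosen after seeing the data, the median fold change in DSS was 0.22 over 267 genes and 79.8% were positive, where the members had 0.19 and 87.1%. The members were not limited by length or level there. Other genes of 1000 bases or more at that level had 0.08 over 967 genes, and 60.9% were positive. Members under 1000 bases had 0.23 over 57 genes (86.0% positive) and longer members, at any level, 0.16 over 36 (88.9% positive). For the 267 genes the medians were -0.08 in FGF1 against DSS and 0.12 in FGF1 against control. The part of length, level and cell makeup in the members' shift was not tested.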

How the data were processed

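Oligo(dT) beads selected the messages from 5 µg of RNA for each library, per the labels. The submitters' processing notes name cutadapt 1.9, HISAT2 2.0.4, StringTie 1.3.4d, edgeR and GRCm38. The authors deposited transcript FPKM by structure event and no read counts, so depth is unknown. Only transcripts that enter an event are listed. Here each transcript entered once, at its highest FPKM in a library (0 where not listed), and symbols came from GENCODE vM21. Genes were fitted with limma 3.58.1 (R 4.3.3) on log2(FPKM + 1), with a mean-variance trend and all 12 libraries, and tests were two-sided. Main transcript shares were fitted on the arcsine square root for genes with at least 2 listed transcripts and 5 FPKM in every library. Both fits were tested on simulated data. Members and lists were chosen with earlier results of these data known. Named genes are called members, fixed core subunits, isoform families, the member of each complex with a mean of at least 10 FPKM and the largest change in DSS, and any whose share was called (none was). One gene of the core list is not reported here. The closing section gives the effect of 29 other settings.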

Additional observations from a re-analysis of the deposited data

Results flagged for a closer look

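Among 117 groups of 4 libraries (each named member in each treatment group), 5 held a library far from the others in the gap between neighbours relative to the range. Chance alone would mark about 1 in 20 groups. Ndufv1 stood at 63.8 FPKM in DSS 2, with the other DSS libraries at 75.6 to 77.7. Sdha stood at 138 FPKM in DSS 2, with the others at 164 to 169. Cox6a1 stood at 612 FPKM in DSS 1, with the others at 806 to 843. Ndufs1 stood at 62.6 FPKM in FGF1 4, with the others at 52.2 to 53.0. Atp5g1 stood at 296 FPKM in FGF1 1, with the others at 238 to 243.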

How the results depend on the processing

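The direction of the members' median in DSS against control was kept under every setting tried except the fibroblast score as covariate, which was chosen after seeing the data, and the number of members called was not stable. Values below are counts of calls or log2 fold changes (medians for members and complexes) where a direction turned, a count of calls moved by more than 1.5 times or a median moved beyond the spread between replicates, and the cause was not tested. Lost calls of single genes in DSS minus control are given as counts: the call was kept under 6 of 26 other settings for Ndufa4l2, 6 of 29 for Ndufa6, 24 of 29 for Ndufb8, 18 of 29 for Ndufc2, 18 of 28 for Ndufs4, 18 of 22 for Cox4i2, 26 of 29 for Cox6b2, 9 of 29 for Atp5g3. Whether replicate numbers pair the libraries was not settled. Correlations of deviations of same-numbered libraries ran from -0.217 to 0.399, and libraries with different numbers were not correlated for comparison. The fit with the replicate block is listed with the others. With no filter on low values, values were in DSS minus control called members 5, and in FGF1 minus control called genes 50, called members 1. With FPKM of at least 1 in all 12 libraries, values were in DSS minus control called genes 715, called members 4, and in FGF1 minus DSS called genes 14, and in FGF1 minus control called genes 0. With median-of-ratios scaling, values were in DSS minus control called members 14, members 0.33, complex I 0.32, complex II 0.26, complex III 0.40, complex IV 0.37, complex V 0.39, Ndufs8 0.038, Atp5b 0.11, and in FGF1 minus DSS called genes 15, Cox6b2 -0.024. With most abundant listed transcript, values were in DSS minus control called genes 844, called members 3, Ndufv1 -0.51, Ndufs1 -0.40, and in FGF1 minus DSS Cox6b2 -0.59. With start-event transcripts, values were in DSS minus control called genes 727, called members 4, Ndufb8 -1.43, Ndufv2 -0.15, Sdha -0.021, Ndufa4 -0.29, and in FGF1 minus DSS called genes 1, complex IV 0.025, Ndufb8 1.56, Cox6b2 -0.20, and in FGF1 minus control called genes 1. With transcripts listed in all 12 libraries, values were in DSS minus control called genes 922, called members 4, Ndufv1 -0.45, Ndufs1 -0.0036, Atp5c1 -0.0088, and in FGF1 minus DSS called genes 4, and in FGF1 minus control called genes 1. With replicate block, values were in DSS minus control called genes 1028, called members 3, and in FGF1 minus DSS called genes 2, and in FGF1 minus control called genes 1. With smooth muscle score as covariate, values were in DSS minus control called genes 33, called members 0, complex III 0.077, complex IV -0.033, Ndufv2 -0.079, Ndufs1 -0.0026, Sdha -0.069, Sdhb -0.12, Uqcrc2 -0.13, Cox4i1 -0.033, Cox5a -0.011, Cox5b -0.14, Atp5c1 -0.10, Cox6a1 -0.00022, Cox7a1 -0.25, Cox7a2l -0.35, and in FGF1 minus DSS called genes 0, members 0.016, complex II 0.078, complex III 0.028, complex IV 0.059, Cox4i2 -0.087, Cox6b2 -0.0034, and in FGF1 minus control called genes 2. With epithelial score as covariate, values were in DSS minus control Cox5b -0.066, and in FGF1 minus DSS called genes 1, and in FGF1 minus control called genes 0. With only the 2 groups compared, values were in DSS minus control called members 4, and in FGF1 minus DSS called genes 3, and in FGF1 minus control called genes 38. Without DSS 3 and DSS 4, values were in DSS minus control called genes 185, called members 1, members 0.027, complex I 0.019, complex III 0.082, complex IV -0.085, Ndufv2 -0.086, Ndufs1 -0.043, Sdhb -0.019, Cox4i1 -0.080, Cox5a -0.089, Cox5b -0.085, Atp5c1 -0.068, Cox7a1 -0.15, Cox7a2 -0.064, Cox7a2l -0.44, Ndufa4 -0.082, Sdhaf4 -0.044, and in FGF1 minus DSS called genes 0, members 0.059, complex I 0.043, complex II 0.12, complex III 0.033, complex IV 0.13, complex V 0.059, Ndufa6 0.022, Ndufc2 0.0018, Cox4i2 -0.033, and in FGF1 minus control called genes 38. Without control 3 and FGF1 3, values were in DSS minus control called genes 915, called members 4, Atp5c1 -0.063, and in FGF1 minus DSS called genes 2, complex IV 0.0048, and in FGF1 minus control called genes 20. With fibroblast score as covariate, values were in DSS minus control called genes 0, called members 0, members -0.25, complex I -0.21, complex II -0.11, complex III -0.33, complex IV -0.58, complex V -0.10, Ndufa4l2 0.24, Ndufa6 -0.11, Ndufc2 -0.040, Atp5g3 -0.010, Ndufv2 -0.65, Ndufs7 -0.46, Sdha -0.059, Sdhb -0.28, Sdhc -0.015, Sdhd -0.19, Uqcrc2 -0.045, Uqcrfs1 -0.32, Cox4i1 -0.59, Cox5a -0.63, Cox5b -0.38, Atp5b 0.075, Atp5c1 -0.062, Cox6a1 -0.39, Cox7a1 -1.45, Cox7a2 -0.58, Cox7a2l -0.83, Cox8a -0.45, Sdhaf4 -0.54, Uqcrh -0.44, and in FGF1 minus DSS called genes 0, members 0.15, complex I 0.12, complex II 0.13, complex III 0.19, complex IV 0.34, complex V 0.12, Ndufa4l2 -0.20, Ndufa6 0.16, Ndufc2 0.12, Ndufs4 0.0052, Cox4i2 -0.043, Atp5g3 0.085, and in FGF1 minus control called genes 0, members -0.076, complex I -0.068, complex III -0.15, complex IV -0.18, Ndufa4l2 0.036, Ndufb8 -0.053. With pseudocount 5, values were in FGF1 minus DSS called genes 12, and in FGF1 minus control called genes 49, called members 1. With upper-quartile scaling, values were in FGF1 minus DSS called genes 22. With Ndufa4 and Ndufa4l2 counted in complex IV, values were in FGF1 minus DSS complex IV 0.0078. With pseudocount 0.1, values were in FGF1 minus control called genes 0. With no mean-variance trend, values were in FGF1 minus control called genes 28. Leaving out each library in turn gave these ranges: in DSS minus control called members 2 to 23, Ndufs1 -0.0031 to 0.13, Ndufs8 -0.28 to 0.051, Atp5c1 -0.063 to 0.086, called genes 697 to 1982, Ndufa4 -0.063 to 0.13, complex IV 0.10 to 0.38, Atp5b -0.10 to 0.033, Cox5b -0.074 to 0.25, Cox7a1 -0.039 to 0.50; in FGF1 minus DSS called genes 0 to 43, complex IV -0.20 to 0.058, Cox6b2 -0.085 to 0.11, complex II -0.068 to 0.021, complex V -0.15 to 0.031; in FGF1 minus control called genes 0 to 83, called members 0 to 1. The median of the members ran from 0.13 to 0.31 in DSS minus control, -0.18 to -0.013 in FGF1 minus DSS, 0.085 to 0.15 in FGF1 minus control. Depth is unknown, so low values such as those of Cox4i2 and Ndufa4l2 carry an unknown counting error. Leaving out any control library took Cox4i2 out of the test, and such settings are not among its 22.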
